A study of Drosophila melanogaster with 5 samples.

Results

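The RNA of Drosophila melanogaster ovaries was compared with the RNA of whole adult flies, using 3 of the 5 libraries of a study of transposable element transcription. The ovary library was made from 20 ovaries of the line iso1a, from 5 µg of total RNA taken to poly(A)+ RNA. It was prepared by CAGE, a method that captures the capped 5′ ends of transcripts and keeps their strand, and was sequenced on a Solexa instrument. The whole-body libraries were made from poly(A)+ RNA of the lines Rev and IR6, each from 10 male adults younger than 24 h mixed with 10 female adults aged 0 to 3 days. They were random-primed, carry no strand information and were sequenced on the Illumina HiSeq. These 3 libraries are the ones that the labels mark as made without normalization. The remaining pair, an ovary library titled Iso1a-454 and a whole-body library, both of the line iso1a, is marked as normalized and enters below only beside single results. The labels give the lines by name only.

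The fly ovary is a row of egg chambers. In each chamber germline nurse cells feed an oocyte with RNA and protein, and an epithelium of somatic follicle cells surrounds both. In the last stages the follicle cells secrete the eggshell, first the vitelline membrane and then the chorion, and yolk proteins are made in the fat body as well as in follicle cells. Germline and follicle cells both silence transposable elements (TEs), genomic sequences that can copy themselves, with small RNAs of the piRNA pathway.

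Each group was 1 library, so no difference below has a replicate check and no p-value is given. Tissue, sex, line, 5′-end capture, strand and sequencing instrument differ together between the ovary library and the bodies and cannot be told apart. In these bulk samples fewer cells of a type and less RNA per cell also cannot be told apart. A gene's value was its largest count among its annotated transcripts, and the gene counts summed to 2813522 in the ovary library, 11685814 in Rev and 9633168 in IR6. The Iso1a-454 ovary library held 109980. The log2 ratio of a gene is its ovary count plus 0.5 over the body count plus 0.5, each scaled to its library's gene total. A gene was measured when the ovary library and each body together held 50 or more counts, and was called higher or lower when its ratios to Rev and to IR6 both passed 4-fold in one direction. The ratio closer to 0 is the one given where a single value stands. Intervals are exact 95% Clopper-Pearson intervals and cover counting error only.

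Of 9113 measured genes, 481 were called higher in the ovary library, which is 5.28% of those measured. A further 5273, or 57.9%, were called lower and 3359 were called neither. The called-higher genes held 61.6% of all ovary gene counts, against 3.91% in Rev and 4.24% in IR6. The called-lower genes held 3.11% of ovary counts, 56.3% of Rev counts and 57.6% of IR6 counts. In the ovary library the 100 most counted genes held 56.4% of counts, against 29.1% in Rev and 32.3% in IR6. A count was present for 5804 genes in the ovary library, 12817 in Rev and 12717 in IR6, numbers that also depend on the lower depth of the ovary library. The median log2 ratio of all measured genes was -2.89, and 3416 measured genes had no ovary count. Such a gene can be measured only through its body counts and is then called lower in every case, so these 3416 calls follow from the minimum of counts. A gene with few counts in both bodies can likewise be measured only through its ovary counts, which favours a higher call. Among the 5697 measured genes with an ovary count, 1857 were called lower and the median log2 ratio was -1.23 against Rev and -1.10 against IR6. Scaling by trimmed means of M-values (TMM) in place of gene totals raised the median log2 ratio of all genes by 0.97, to -1.92. With TMM 880 genes were called higher and 4490 lower. Median-ratio factors gave 976 and 4400, so that higher genes made up 8.36% of the calls with gene totals, 16.4% with TMM and 18.2% with median-ratio factors.

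**Figure D1:**
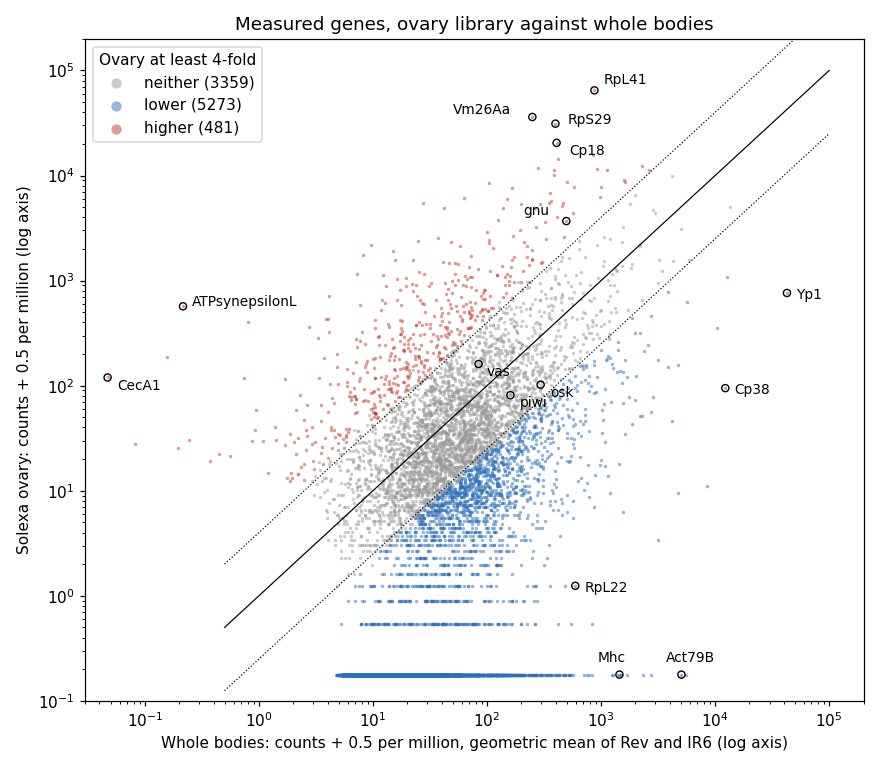
Each point is 1 of 9113 measured genes, with its ovary level on the vertical log axis and the geometric mean of its Rev and IR6 levels on the horizontal log axis, both as counts plus 0.5 in CPM. The solid line marks equal levels and the dotted lines 4-fold. Vm26Aa, Cp18, RpL41 and RpS29 lie far above the upper dotted line, Yp1 and Cp38 below the lower one, and the row at the bottom holds the 3416 genes with no ovary count.

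The eggshell genes split by gene. Of the 4 late chorion genes, a cluster on chromosome arm 3L that follicle cells amplify and transcribe at the end of oogenesis, 3 were called higher and none lower, with a median log2 ratio of 4.73. Cp18 had 57634 counts in the ovary library, 4210 in Rev and 4439 in IR6. Its level was 20485 CPM (the count scaled to the library's gene total) in the ovary library, against 360 CPM for Rev and 461 CPM for IR6, a log2 ratio of 5.83 (interval 5.78 to 5.87) against Rev and 5.47 (5.43 to 5.52) against IR6. The body levels lay close together and the ovary level stood far above both. Cp15 had 40654, 4653 and 4275 counts, with log2 ratios of 5.18 and 5.02, and Cp16 had 8223, 874 and 1309 counts, with log2 ratios of 5.29 and 4.43. Cp19, the fourth gene of the cluster, did not reach 4-fold. It had 15028 ovary counts, 16047 in Rev and 22249 in IR6, with log2 ratios of 1.96 and 1.21, so its ovary level was above both bodies but by less than that of its neighbours.

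The vitelline membrane list held 13 gene entries, all measured, of which 2 were called higher and 5 lower (median log2 ratio -1.73). Vm26Aa, a structural protein of the membrane, had the second highest ovary count of all genes, 101523, whereas Rev had 3842 and IR6 1827. Its log2 ratio was 6.78 (interval 6.73 to 6.82) against Rev and 7.57 (7.51 to 7.64) against IR6. Vm32E, another structural protein, had 17351, 847 and 531 counts and log2 ratios of 6.41 and 6.80. It overlaps another gene, and the unstranded body libraries cannot tell the 2 genes' reads apart. Its neighbours in function stood nearer to the bodies. Vm34Ca had 6968, 13296 and 12163 counts (log2 ratios 1.12 and 0.97), and Vm26Ab had 6181, 16314 and 5928 counts (0.65 and 1.84). Vml, at 2003, 25603 and 6292 counts, lay below Rev (log2 ratio -1.62) and level with IR6 (0.12). At 0 in the ovary library were 4 entries, of which 3 were picked here for their roles after their values were seen. fs(1)N and tsl, which act in terminal patterning, and ndl, a protease of dorsoventral patterning, had 0 ovary counts against 802, 353 and 137 in Rev and 607, 118 and 153 in IR6.

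Of 13 early and middle eggshell genes, 1 was called higher and 6 lower, and their median log2 ratio of -0.85 became 0.00 with TMM and 0.05 with median-ratio factors. Femcoat, a chorion gene, was the one called higher, at 6456 ovary counts against 893 in Rev and 1381 in IR6 (log2 ratios 4.91 and 4.00). Cp36 and Cp38 are major chorion genes of one cluster on the X chromosome. Cp36 had 13179, 31825 and 28836 counts, with log2 ratios of 0.78 and 0.65. Cp38 had 266 ovary counts against 139389 in Rev and 121994 in IR6, with log2 ratios of -6.98 (interval -7.16 to -6.81) and -7.06 (-7.24 to -6.89). The pair therefore stood on opposite sides of 0. Both overlap another gene in the annotation, and in the Iso1a-454 ovary library Cp38 held 1047 counts, or 9520 CPM, against 94.5 CPM in the Solexa ovary library. The part of the library in the low Solexa count of Cp38 was not tested. Against the iso1a whole body, marked as normalized unlike Rev and IR6, the log2 ratio of Cp38 was 0.54. Its direction thus depended on the body library. The gene yellow-g, needed for a rigid eggshell, showed the same gap: 0 ovary counts by Solexa, 71 in the Iso1a-454 library, 3200 in Rev and 2320 in IR6. The 3 eggshell lists together held 10.1% of Solexa ovary counts, 13.1% of Iso1a-454 counts, 2.66% of Rev counts and 2.64% of IR6 counts.

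The 3 yolk protein genes were below both bodies, and 1 was called lower. Yp1 was the most counted gene of both bodies, at 494716 counts in Rev and 413823 in IR6, or 4.23% and 4.30% of their gene counts. It had 2145 ovary counts, a log2 ratio of -5.79 against Rev and -5.82 against IR6. Yp2, at 14023, 161106 and 128239 counts, had log2 ratios of -1.47 and -1.42. Yp3, at 4409, 70797 and 54940 counts, had log2 ratios of -1.95 and -1.86. The ovary library therefore held less of all 3, by unequal amounts, and the 3 together took 0.731% of its counts, against 6.22% in Rev and 6.20% in IR6. The direction depended on the body library. Against the iso1a whole body, where they took 0.0655%, the log2 ratios were 1.76, 5.09 and 2.47. That body is marked as normalized, unlike Rev and IR6, and line and normalization cannot be told apart.

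Most measured regulators of follicle cell fate were called lower in the ovary library, as were 57.9% of all measured genes. Of 17 such genes 14 were measured, none was called higher and 12 were called lower, with a median log2 ratio of -5.19, or -2.97 when genes with no ovary count were set at the limit that 3 counts allow. Of the 14, 9 had no ovary count and are called lower through the minimum of counts. Their median annotated transcript was 4446.5 nt, and of measured genes of 3701 nt and more 76.5% were called lower. With body counts per kilobase 9 of the 14 were called lower. The Notch receptor gene N had 0 ovary counts where Rev had 577 and IR6 468, at least 46.3-fold and 45.6-fold lower. The ecdysone receptor gene EcR had 0 against 1423 and 1082, at least 114-fold and 105-fold lower. The BMP receptor gene tkv, at 89, 843 and 476 counts (log2 ratios -1.18 and -0.64), was not called. Of the markers of the somatic and germline cells of an ovary, tj, a transcription factor of somatic gonad cells, had 0 ovary counts and was not measured. The follicle cell marker Fas3 was called lower (-2.79 and -2.27), a call that ended per kilobase (-1.41 and -0.78) and with TMM (-1.75 and -1.32). The germline helicase vas had 452 ovary counts, 1093 in Rev and 731 in IR6, and was above both bodies but under 4-fold (log2 ratios 0.78 and 1.08). Of the other germline markers, given below, aub lay above both bodies, osk, grk and bam below both, and nanos between them.

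Among RNAs that the mother loads into the egg, 2 of 28 measured genes (7.14%) were called higher, 11 (39.3%) lower and 15 neither, with a median log2 ratio of -1.15. Over all measured genes 5.28% were called higher and 57.9% lower. The 2 called higher act in the same complex: gnu and plu activate the PAN GU kinase, which starts the cell cycles of the early embryo. gnu had 10370 ovary counts, 5374 in Rev and 5151 in IR6 (log2 ratios 3.00 and 2.79), and plu had 875, 489 and 490 (2.89 and 2.61). The call of plu ended with body counts per kilobase (1.55 and 1.38). The kinase subunit png itself was called lower, at 30, 758 and 646 counts (-2.58 and -2.63), a call that ended with TMM. With the Iso1a-454 ovary library gnu was below the bodies instead, at a log2 ratio of -0.55. The germline thioredoxin gene dhd had 12438, 29986 and 33463 counts (0.78 and 0.35).

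The RNAs that set up the axes and the germ plasm lay below the bodies or near them. osk, the organiser of the germ plasm, had 287 ovary counts, 4627 in Rev and 2121 in IR6 (log2 ratios -1.95 and -1.11). grk, the oocyte's signal to the follicle cells, had 105, 1169 and 818 (-1.42 and -1.18). bcd, the anterior determinant, was called lower at 26, 640 and 476 (-2.54 and -2.39), and so was orb, a translational regulator in the oocyte, at 11, 1620 and 946 (-5.08 and -4.59). Body counts per kilobase ended both calls, with log2 ratios of -1.85 and -1.59 for bcd and -2.58 and -1.97 for orb, and TMM ended that of bcd. For nanos, the posterior determinant, the bodies disagreed: 174 ovary counts were above the level of Rev, at 360 counts (log2 ratio 1.01), and below that of IR6, at 1412 (-1.24). tud, a germ plasm scaffold protein, had 0 ovary counts against 1221 and 655.

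Of 23 genes of meiosis and the early germline, 18 were measured, 1 was called higher and 9 lower. Their median log2 ratio of -1.93 became 0.02 when body counts were taken per kilobase of transcript. The called-higher gene was narya, which encodes a RING-finger protein of meiotic recombination, at 84 ovary counts, 8 in Rev and 15 in IR6 (5.37 and 4.22). It overlaps another gene and, with few body counts, was measured only through its ovary counts, which favours a higher call. mtrm, an inhibitor of Polo kinase in the oocyte, had 1446, 4297 and 2138 counts (0.48 and 1.21) and ovo, a germline transcription factor, had 179, 972 and 630 (-0.38 and -0.04). The differentiation gene bam was called lower, at 27, 563 and 708 (-2.30 and -2.91). This call ended per kilobase (-1.99 and -2.49) and with TMM (-1.26 and -1.96).

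No gene of the piRNA pathway was called higher. Of 28 measured entries 11 were called lower and 17 neither, with a median log2 ratio of -1.33, above the -2.89 of all genes. squ had the largest ratio, at 714 ovary counts, 1111 in Rev and 737 in IR6 (log2 ratios 1.42 and 1.73). The helicase gene armi, at 161, 266 and 102 (1.33 and 2.43), passed 4-fold against IR6 but not against Rev, and was called higher per kilobase (2.74 and 3.95). The Argonaute genes lay on both sides of 0. aub had 202, 710 and 366 counts (0.24 and 0.92), piwi had 228, 2228 and 1298 (-1.23 and -0.73), and AGO3 had 111, 1533 and 857 (-1.73 and -1.17). Panx and arx, partners of piwi in the nucleus, had 0 ovary counts against 456 and 201 in Rev and 231 and 178 in IR6. With the Iso1a-454 ovary library, where it had 9 counts, arx was called higher instead, at a log2 ratio of 2.22. Most of these genes overlap another gene, so the body counts are uncertain.

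Among 18 measured genes of the nurse cell cytoskeleton and ring canals, 1 was called higher and 9 lower (median log2 ratio -2.46). The cofilin gene tsr was the higher one, at 21805, 10061 and 11006 counts (3.17 and 2.76), but not per kilobase (2.08 and 1.78). Of the 18 genes 5 had no ovary count. cher, the filamin of ring canals, had 0 ovary counts against 1337 in Rev and 1511 in IR6, and the formin gene capu had 0 against 386 and 192. shg, the E-cadherin of follicle cells and oocyte, had 0 against 877 and 395. In all, the eggshell, maternal, meiotic, piRNA and nurse cell lists held 122 measured entries, of which 10 (8.20%) were called higher and 51 (41.8%) lower, beside 5.28% and 57.9% of all measured genes.

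Genes of DNA replication and cell division were called higher in 1 case each. Over all measured genes 5.28% were called higher and 57.9% lower. Of 29 measured replication genes 13 were called lower, with a median log2 ratio of -1.79, and Psf1, a subunit of the GINS helicase complex, was called higher at 93 ovary counts, 34 in Rev and 22 in IR6 (3.49 and 3.83). The sliding clamp PCNA had 1685, 2938 and 2317 counts (1.25 and 1.32), whereas Mcm5, a subunit of the replicative helicase, was called lower at 10, 1799 and 1548 (-5.37 and -5.43). Of 29 measured division genes 13 were called lower, with a median of -1.44, and Det, a chromosomal passenger protein related to survivin, was called higher at 1069, 259 and 247 (4.10 and 3.89). Cdk1 had 1068, 1544 and 1114 counts (1.52 and 1.71) and stg, a Cdc25 phosphatase, 1140, 2255 and 1596 (1.07 and 1.29). In the Iso1a-454 ovary library Det had 0 counts, and PCNA and stg were called lower with it, at log2 ratios of -2.92 and -2.38.

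Ribosomal protein genes took 25.4% of ovary gene counts, against 9.19% in Rev and 11.5% in IR6, but they did not move together. Of 87 measured genes 15 were called higher, 32 lower and 40 neither, where 5.28% of all measured genes were called higher and 57.9% lower. Their median log2 ratio was -0.89 with gene totals and 0.00 with TMM and with median-ratio factors, and TMM called 24 higher and 23 lower. RpL41, which encodes the shortest ribosomal protein, was the most counted gene of the ovary library, at 182160 counts or 6.47% of the total, against 7460 in Rev and 11552 in IR6 (6.66 and 5.75). In the Iso1a-454 ovary library RpL41 held 84 counts, or 764 CPM against 64744.5 CPM by Solexa. RpS29 had 87731, 4237 and 4209 counts (6.43 and 6.16) and RpS13 had 33325, 3452 and 2566 (5.33 and 5.47). RpL41 and RpS29 overlap another gene in the annotation. The 15 called-higher genes made up 83.1% of all ribosomal protein counts in the ovary library, 11.4% in Rev and 9.64% in IR6. At the other end RpL15 had 3044 ovary counts against 118867 and 151135 (-3.23 and -3.86). Against the iso1a whole body RpL15 turned to a log2 ratio of 0.96. RpL22 had 3 against 6189 and 6426 (-8.73, interval -11.23 to -7.41, and -9.07, -11.57 to -7.74). RpL22 held 661 counts in the Iso1a-454 ovary library, or 6010 CPM against 1.07 CPM by Solexa. The median annotated transcript was 729 nt long for the 15 higher genes 877 nt for the 32 lower ones and 925.5 nt for the 40 called neither, and with body counts per kilobase 14 were called higher and 39 lower. Some ribosomal protein genes have close copies elsewhere in the genome, and values of such genes are uncertain. The treatment of reads with several places is not given in the sources used here. Which of the genes named here have such copies was not analysed.

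Translation factors showed the same spread, with 5 of 46 measured called higher and 19 lower (median log2 ratio -1.45). Over all measured genes 5.28% were called higher and 57.9% lower. eIF1, which selects the start codon, had 15235, 2349 and 1874 counts (4.75 and 4.80), and eEF5, the hypusine-bearing elongation factor, had 34781, 26634 and 22016 (2.44 and 2.44), a call that ended per kilobase (1.38 and 1.49). eEF1gamma, a subunit of the elongation factor complex, had 3 ovary counts against 4154 and 3405 (-8.16, interval -10.66 to -6.83, and -8.15, -10.65 to -6.82). Of 13 measured histone variant and maternal chromatin genes 3 were called higher and 3 lower. Their median log2 ratio of -0.76 became 0.02 with TMM. The higher ones were Nlp, a nucleoplasmin-like chaperone of sperm chromatin (7404, 2051 and 1593 counts; 3.91 and 3.99), His3.3B (6519, 2701 and 1874; 3.33 and 3.57) and His3.3A (694, 622 and 469; 2.21 and 2.34), both of which encode the replacement histone H3.3. BigH1, the embryonic linker histone, had 817, 6223 and 6088 counts (-0.87 and -1.12).

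Genes of tissues outside the ovary were called lower more often than the 57.9% of all measured genes. Across 10 lists (muscle, nervous system, photoreceptors, fat body, haemocytes, gut enzymes, cuticle, odorant binding, testis and male accessory gland) 198 genes were measured and 183 were called lower, or 92.4%. Of these, 159 had 0 ovary counts and are called lower through the minimum of counts. Among the 39 with an ovary count 24 (61.5%) were called lower, against 32.6% of all measured genes with one. All 23 measured muscle genes were called lower, but not all were at 0. The myosin heavy chain Mhc and the flight muscle actin Act88F had 0 ovary counts against 18195 and 5509 in Rev and 12999 and 4795 in IR6. The regulatory myosin light chain Mlc2 had 129 ovary counts against 57123 and 35210 (-6.73 and -6.31), and Mlc1 17 against 16977 and 16244.

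All 18 listed nervous system genes had 0 ovary counts. elav, the neuronal RNA-binding protein, had 368 counts in Rev and 173 in IR6, and ple, the tyrosine hydroxylase, 2752 and 914. In the eye list 18 of 19 measured genes were called lower, among them the rhodopsin ninaE at 0, 3724 and 3700 counts. Galphaq, a G protein subunit also used outside the eye, was the one not called, at 323, 3152 and 1802 (-1.23 and -0.70). Among fat body genes 12 of 15 were called lower, with apolpp, the lipoprotein of the blood, at 0, 14166 and 13089 counts, and the ferritin subunit Fer2LCH not called at 2533, 10389 and 7042 (0.02 and 0.30). Of 34 measured gut enzymes 31 were called lower, with the protease Jon65Aiv at 0, 10783 and 16525. The proteases Jon99Fi and Jon99Fii, near-identical copies, had 54 and 85 ovary counts, and their ratios against Rev and IR6 were positive (2.00 and 0.48; 2.11 and 1.00).

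Genes used by males were nearly all called lower, beside 57.9% of all measured genes. Of 25 measured testis genes 23 were called lower, and all 23 had no ovary count. Their calls follow from the minimum of counts. The median log2 ratio of the 25 was -8.19, or -5.61 with genes at 0 set at the limit that 3 counts allow. The testis tubulin betaTub85D had 0 ovary counts against 3818 in each body, at least 306-fold and 372-fold lower. aly, a regulator of the transcription programme of spermatocytes, was called higher instead, at 41 ovary counts against 10 and 15 (4.04 and 3.20). With so few body counts aly was measured only through its ovary counts, which favours a higher call. All 20 measured accessory gland and ejaculatory bulb genes were called lower, 19 of them with no ovary count and so through the minimum of counts. The seminal protein Acp36DE had 0, 2371 and 1432 counts, and EbpIII, at 26, 753 and 529 (-2.78 and -2.54), was the one with ovary counts. Its call ended with TMM.

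Common reference genes were not level between the libraries. Of 13 measured, 6 were called lower and none higher, with a median log2 ratio of -1.57. Over all measured genes 57.9% were called lower and the median was -2.89. All 13 had an ovary count, and of all measured genes with one 32.6% were called lower. RpL32 had 122, 7577 and 7105 counts (-3.90 and -4.08), Gapdh2, a glycolytic enzyme, 144, 27613 and 21706 (-5.52 and -5.46), and Act5C, a cytoplasmic actin, 2689, 41359 and 27413 (-1.89 and -1.57). eEF1alpha1 lay above both bodies at 28130, 51418 and 38070 (1.18 and 1.34). Their log2 ratios ranged from -6.85 to 1.18. Dosage compensation genes, which act in males, were called lower in 2 of 4 cases. Of the steroid synthesis genes 3 of 10 were measured and 1, sad, was called lower.

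**Figure D2:**
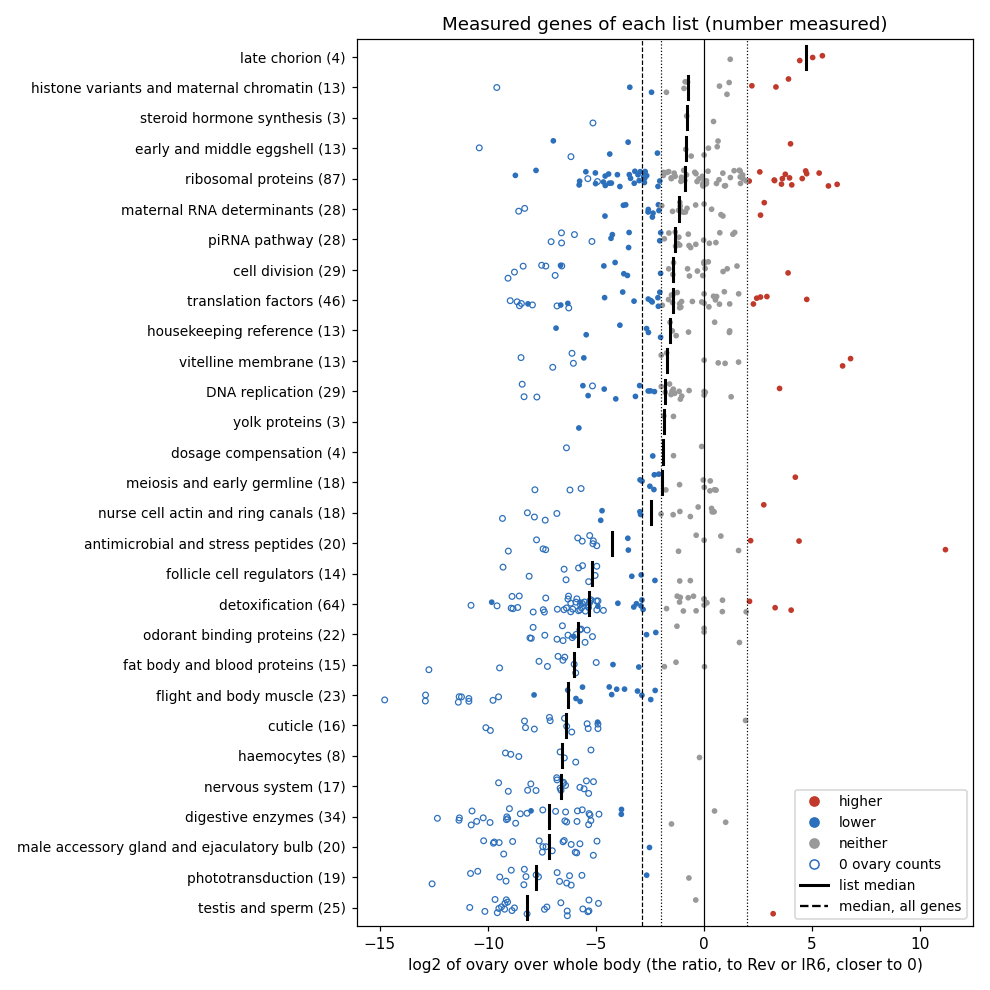
Each point is a measured gene of the list named on the left, placed at its log2 ratio of ovary over whole body, the one closer to 0 of its ratios to Rev and IR6. Thick bars are list medians, the dashed line is the median of all genes at -2.89 and dotted lines mark 4-fold; for open symbols, genes with 0 ovary counts, the position depends on the added 0.5 count. The late chorion list stands to the right of 0 and the testis, eye, accessory gland and gut lists farthest to the left.

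The genes with the largest ratios in favour of the ovary library had annotated transcripts of 331 to 1348 nt, and CecA1 is the one among them that stands on a list here. CecA1, an antimicrobial peptide, had 336 ovary counts and 0 in both bodies, at least 465-fold higher than Rev and 383-fold higher than IR6. In the iso1a whole body it had 479 counts. ATPsynepsilonL, related to the epsilon subunit of mitochondrial ATP synthase, had 1602 ovary counts against 1 Rev and 3 IR6 counts (log2 ratio 12.12, interval 10.22 to 18.00, and 10.61, 9.29 to 13.12), and 861 in the iso1a whole body. CG32640 had 528, 5 and 0 counts, and 503 in the iso1a whole body. In the Iso1a-454 ovary library the 3 genes had 1, 6 and 7 counts. They were thus near 0 in Rev and IR6 and were counted in the iso1a whole body and, at low counts, in the Iso1a-454 ovary library. Among the whole bodies, which share the tissue, the line and the mark of normalization differ together and cannot be told apart.

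Others had low but clear body counts. Urm1, a ubiquitin-like modifier of tRNA, had 1138, 7 and 9 counts (9.30 and 8.68). cer, an inhibitor of cysteine proteases, had 6124, 107 and 98 (7.89 and 7.73), and Phf5a, a splicing factor, had 4907, 101 and 73 (7.65 and 7.84). ND-AGGG, a subunit of respiratory complex I, had 15262, 267 and 314 (7.89 and 7.38). CG15083 had 2000, 51 and 36 counts, CG13998 had 329, 9 and 6, and CR10102 had 77, 0 and 1. cer, Phf5a and CG15083 overlap another gene. Urm1 and CR10102 had 0 counts in the Iso1a-454 ovary library, where cer had 137 and Phf5a 107. At its Solexa level Urm1 would have 44.5 counts at the depth of that library and CR10102 3.01.

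Among immune and stress peptides 3 of 20 measured genes were called higher and 12 lower. Over all measured genes 5.28% were called higher and 57.9% lower. Of the 20 genes 10 had no ovary count and are called lower through the minimum of counts. The higher ones were CecA1, AttA (107, 5 and 17 counts, with log2 ratios of 6.34 and 4.39) and Def (45, 42 and 24, with 2.15 and 2.67). CecA1 and AttA were measured only through their ovary counts, which favours a higher call. The stress-induced TotA and TotM, by contrast, had 0 ovary counts against 2495 and 2169 in Rev and 369 and 275 in IR6. Among 64 measured detoxification genes 3 glutathione transferases were called higher and 46 genes lower. Of the 64 genes 37 had no ovary count and are called lower through the minimum of counts. GstE6 had 499, 212 and 52 counts (3.29 and 5.03), GstE7 369, 64 and 77 (4.57 and 4.03), and GstD3 256, 225 and 204 (2.24 and 2.10). Per kilobase GstD3 (1.17 and 1.14) and Def (0.18 and 0.81) were not called. The cytochrome Cyp4g1, which makes cuticular hydrocarbons in oenocytes, had 9 ovary counts against 35854 and 30711 (-9.83 and -9.88). The members of each cluster of glutathione transferases are close copies, and counts may be split between them.

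The 10 genes with the largest ratios in favour of the bodies all had 0 ovary counts. Act79B, an actin of tubular muscles, had 58482 Rev counts and 49380 IR6 counts, at least 4693-fold and 4807-fold above the limit of the ovary library. Scp1, a calcium-binding protein of muscle, had 52170 and 66863, and the flight muscle protein gene fln 17386 and 13085. Nplp3, a neuropeptide-like precursor, had 27338 and 30534, and Arr2, the major arrestin of photoreceptors, 12779 and 24775. Mhc and apolpp, given above, CG16826, CG12374 and the noncoding lncRNA:noe complete the set.

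Transcript length moved with the ratio. Genes were put into 5 equal classes by their longest annotated transcript, and the share called higher fell from class to class, from 19.0% in the shortest (175 to 1113 nt) over 3.43%, 2.05% and 1.05% to 0.664% in the longest (3701 nt and more). The share called lower was 42.5% in the shortest class and 76.5% in the longest. The median log2 ratio was -0.75 in the shortest class, -2.64 in the middle one and -5.19 in the longest. Across the 5651 genes with an ovary count and a known length, which are not independent replicates, Spearman's rho between ratio and length was -0.43. The average ovary count fell on a gene with a transcript of 1213 nt, against 2449 nt in Rev and 2263 nt in IR6. A 5′-end library counts a transcript once at its start, while a random-primed library counts it along its length. With body counts taken per kilobase, 433 genes were called higher, of which 325 were among the 481, and 4770 lower. The shortest class then still held 204 of the called-higher genes, the next 3 classes 53, 54 and 52 and the longest 70. Of the called genes named here, mei-P26, a germline regulator with a transcript of 23041 nt, changed direction. It had 25, 898 and 681 counts (-3.08 and -2.96) and a log2 ratio of 0.79 per kilobase. A further 7 named genes, none called in either setting, also changed sign per kilobase. The late chorion, vitelline membrane and early and middle eggshell lists had 3, 2 and 1 called-higher members, and each of these was also called higher per kilobase.

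**Figure D3:**
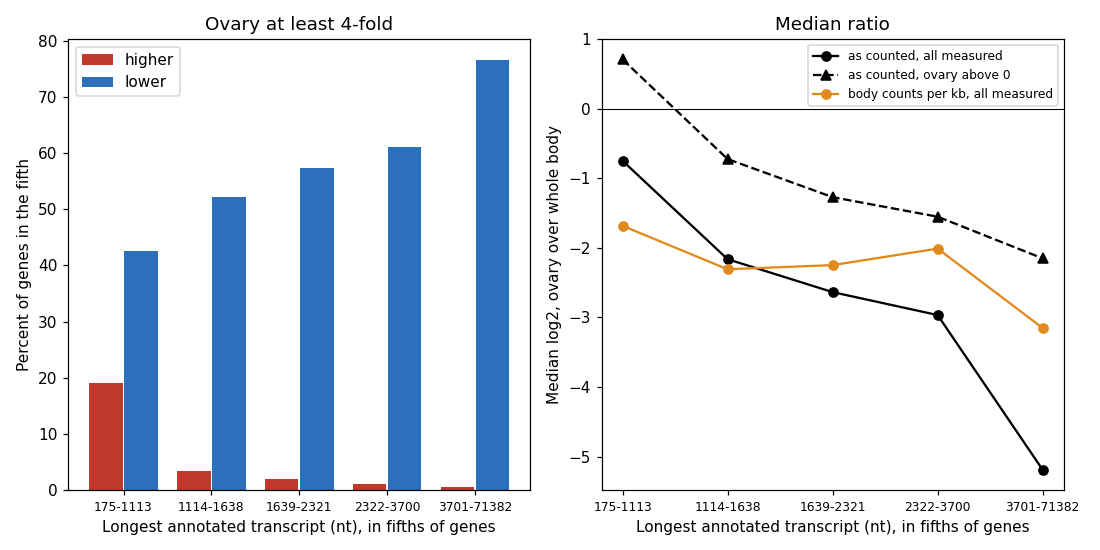
Left, percent of measured genes in each class of transcript length called higher or lower in the ovary library. Right, median log2 ratio per class as counted, for the genes with ovary counts, and with body counts per kilobase: as counted the median falls from -0.75 to -5.19, and per kilobase it lies between -1.68 and -3.15.

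The Iso1a-454 ovary library and the iso1a whole body gave different calls for many genes. Both share the line iso1a with the Solexa ovary library but are marked as normalized. Of the 481 called-higher genes, 409 were measured with the Iso1a-454 library in place of Solexa and 168 were called higher with both. Taking in the iso1a whole body as well, 93 genes were called higher with both ovary libraries and against all 3 bodies. A few genes turned to the opposite call with the Iso1a-454 library, 10 from higher to lower and 22 from lower to higher. Hsp26, a small heat shock protein expressed in the germline, had 24345 Solexa, 19048 Rev and 15498 IR6 counts (log2 ratio 2.41, or 1.78 and no call per kilobase), and 2 counts in the Iso1a-454 library (-6.15). EMC6, a subunit of a membrane protein insertase, had 3788 Solexa counts and 1 in the Iso1a-454 library. HmgD, an abundant chromatin protein of the early embryo, went the other way, with 12 Solexa and 264 Iso1a-454 counts against 4122 in Rev and 2269 in IR6, as did RpL22. Of the 3416 called-lower genes with 0 Solexa counts, 621 had an Iso1a-454 count, 15 of them 10 or more. A gene at 0 in the Solexa library could thus be counted in the other ovary library. What sets these genes apart in the libraries was not tested.

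By chromosome the ovary library held 10.8% of its gene counts on the X, against 22.7% in Rev and 22.6% in IR6. Yp1, Yp2, Yp3 and Cp38, which are on the X, are among the most counted genes of the bodies. Of measured X genes 4.50% were called higher and 60.0% lower. These shares were 4.98% and 60.4% on arm 3R, 5.02% and 57.1% on 2R, and 5.88% and 56.4% on 2L. On 3L they were 5.88% and 55.7%, and on chromosome 4, with 69 measured genes, 4.35% and 47.8%.

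TEs took 0.268% (interval 0.262 to 0.274) of counts in genes and TE copies together in the ovary library, 7566 counts, against 2.33% in Rev and 2.67% in IR6. Of 20953 annotated copies, 119 had an ovary count, against 5418 in Rev and 4848 in IR6, and 48 of 166 families had one. A stretch of 15610 bp on arm U, a collection of unplaced sequence, held 17 copies with 15.5% of ovary TE counts, 37.4% of Rev and 51.1% of IR6 TE counts. Without it the shares were 0.227%, 1.47% and 1.32%. The ovary counts were concentrated: 5 copies held 54.2% of them, against 33.1% and 45.6% in the bodies.

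Of 79 measured TE families, 3 (3.8%) were called higher and 53 (67.1%) lower, with ratios scaled to gene totals. The 35 families with no ovary count are called lower through the minimum of counts, and among the 44 with one 18 were called lower. With ratios scaled to each library's TE total, 19 were called higher and 29 lower, so that higher families made up 5.36% of the calls with gene totals and 39.6% with TE totals. The 3 called higher were Rt1a, a non-LTR retrotransposon, at 89 ovary counts, 26 in Rev and 24 in IR6 (log2 ratios 3.81 and 3.64), Dmir_spock at 875, 333 and 230 (3.45 and 3.70), and GATE, an LTR retrotransposon, at 52, 34 and 11 (2.66 and 3.97). With the Iso1a-454 ovary library, where it had 1 count, Dmir_spock turned to a log2 ratio of -0.81. Each family rested on few copies. A single copy held all ovary counts of Dmir_spock, and 1 copy held 86.5% of those of Rt1a and 71.2% of those of GATE. Stalker2, an LTR retrotransposon, had the most ovary counts of any family, 2336, against 7974 in Rev and 5795 in IR6, and was near Rev and IR6 (0.28 and 0.47). Against the iso1a whole body, with 1280304 counts, its log2 ratio was -8.46. Quasimodo, the most counted family of both bodies at 58425 and 70946 counts, was called lower at 902 (-3.96 and -4.52).

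In 35 families the ovary library had no count while each body had 50 or more. The I-element, active in the female germline, had 0 ovary counts where Rev had 3969 and IR6 2758, at least 319-fold and 269-fold lower. The LTR family opus had 0 against 3922 for Rev and 1824 for IR6. ZAM, Idefix and gypsy are LTR retrotransposons that follicle cells are known to silence. ZAM had 66 ovary counts against 2557 and 1918 (-3.21 and -3.07), all on 1 copy of the arm U stretch. Idefix had 116 against 690 and 578 (-0.51 and -0.54), of which 99.1% lay on 1 copy on arm 2R. Scaled to the TE total the ratio of Idefix turned to 2.64. gypsy had 0, 75 and 28 counts and was not measured.

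By kind of family the calls were these, beside 67.1% of all measured families called lower. A measured family with no ovary count is called lower through the minimum of counts, and the added 0.5 count places its ratio. Of all listed families, measured or not, 7 of 16 follicle cell, 10 of 19 germline and 8 of 21 DNA transposon families had an ovary count. Of 12 LTR families known from somatic follicle cells none was called higher and 9 (75.0%) lower (median log2 ratio -5.75). Of 15 families known mainly from the germline 1, Rt1a, was called higher and 11 (73.3%) lower (-4.85). All 5 telomeric families, which maintain chromosome ends in flies, were called lower (-5.26), HeT-A at 19, 792 and 680 counts and TART-C at 0, 3372 and 65. Only 2 of the 5 had an ovary count, and their median is the ratio of TART-C, placed by the added count. Of 10 DNA transposon families 2 were called lower and 8 neither (-1.37), among them INE-1 at 192, 3334 and 2534 (-2.06 and -1.94). The 2 called lower, Tc1 and transib1, had no ovary count.

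**Figure D4:**
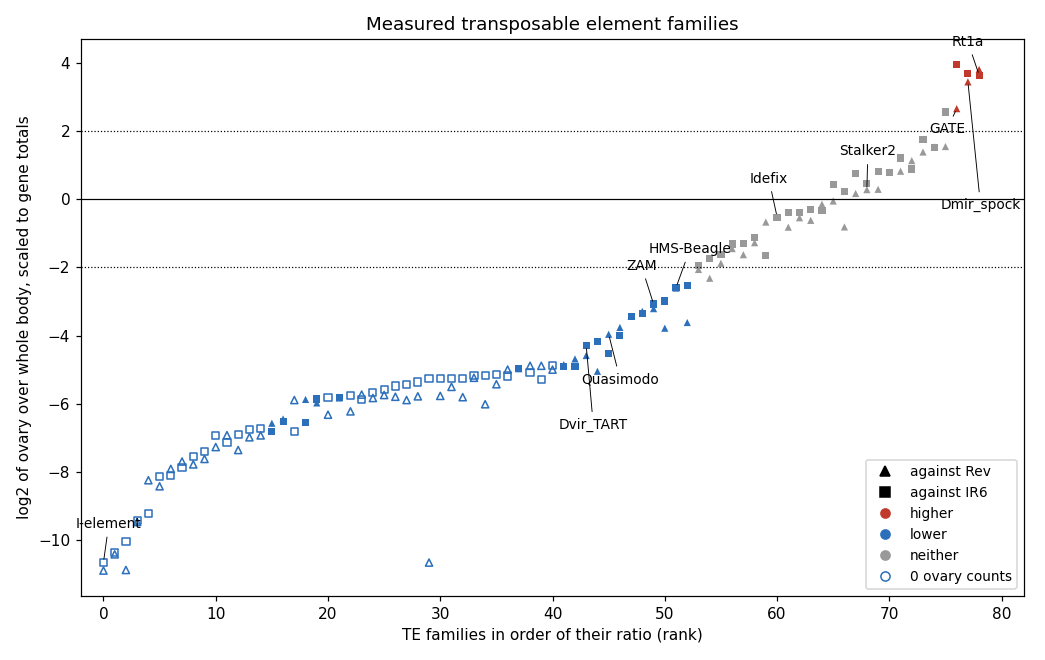
Log2 ratio of ovary over whole body, scaled to gene totals, for each of 79 measured TE families in order of the ratio closer to 0, with triangles against Rev and squares against IR6. Dotted lines mark 4-fold, and open symbols, families with 0 ovary counts, are placed with 0.5 count. Rt1a, Dmir_spock and GATE lie above the upper line and the I-element at the lower left.

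Single copies could stand above the bodies where their family did not. Of 402 measured copies 18 (4.48%) were called higher and 373 (92.8%) lower, 353 of these with no ovary count and so called lower through the minimum of counts. Among the 49 copies with an ovary count 18 were called higher and 20 lower. A copy with few counts in both bodies, such as an Rt1a copy at 77, 0 and 0, was measured only through its ovary counts. The minimum of counts favours a higher call for such a copy. The 18 copies belonged to 14 families and held 59.2% of ovary TE counts, and their median length was 280 bp. Of these, 2 spanned at least 50% of the longest copy of their family. For the copy positions the build is not given in the sources used here; whether a copy lies in or next to a gene was not analysed here.

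The copy with the most ovary counts was a Stalker2 copy of 347 bp on arm 3R, chr3R:12295523-12295869, with 1118 ovary counts, 99 in Rev and 72 in IR6 (5.55 and 5.72). It covers positions 1248 to 1586 of the element. A second Stalker2 copy, of 361 bp on arm 2R, had 957, 778 and 554 counts (2.35 and 2.56), and another on 3R had 94, 1 and 1. All 9 Stalker2 copies with ovary counts overlapped the first on the element, as did 599 of the 695 annotated Stalker2 copies. A Dmir_spock copy of 183 bp, chrX:15679371-15679553, had 875, 280 and 191 counts (3.70 and 3.97). On the X a HMS-Beagle copy of 200 bp had 231 ovary counts, 2 in Rev and 1 in IR6, while the family was called lower at 386, 9776 and 7965 counts (-2.61 and -2.59), or at 0.54 when scaled to the TE total. The Rt1a copy with the most ovary counts, 190 bp on 3L, had 77 ovary counts and 0 in all 3 bodies. The copy of Quasimodo with 806 ovary counts, on arm U, had 1187 in Rev and 2129 in IR6 (1.50 and 0.37), so most of that family's deficit lay on its other copies. Of the 18 copies called higher 12 also had at least 1 count in the Iso1a-454 ovary library, most of them exactly 1. The first 2 Stalker2 copies had 17 and 27 counts there, and the Dmir_spock copy, with 875 by Solexa, had 1. The Solexa gene total was 25.6-fold that of the Iso1a-454 library. A count there does not by itself show a raised level.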

How the data were processed

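Poly(A)+ RNA was sequenced from ovaries and whole bodies. Alignment used Bowtie, per the submitters' processing notes. Its version, the genome build and the handling of reads with several places are not given in the sources used here. For genes the authors deposited whole-number read counts per annotated transcript, and for TEs an annotation whose attribute field holds the deposited count of reads overlapping each copy. No scaling had been applied. Rows without a gene name held 0, 430 and 237 counts in the ovary, Rev and IR6 libraries and were left out. Identifiers were matched to symbols by locus tag (12473) or synonym (548), and 244 kept their number. BDGP6 gave lengths, names and overlaps between genes, never positions. For each gene the largest transcript count was used, scaled to the gene total, with 0.5 added, a minimum of 50 counts in each pair and 4-fold for a call. A library at 0 was set at 3 counts for bounds, which is 1.07, 0.257 and 0.311 CPM in the ovary, Rev and IR6 libraries; bounds and intervals cover counting error only. Genes named were the 10 largest ratios in each direction, the 10 with the most ovary counts and up to 4 members of each of 29 lists with the most counts; further list members, single copies and genes whose call turned were picked after their values were seen. The members, the lists and the tests were chosen with earlier results of these data known. Alternatives covered TMM (edgeR 4.0.16) and median-ratio factors (DESeq2 1.42.0) in R 4.3.3, totals without the most counted genes, counts per kilobase, sums over transcripts, other minimums and folds, single bodies, and the Iso1a-454 ovary library and iso1a body in place of the main ones. The calls were also run on simulated libraries that held counting error only, drawn around a shared profile with known changes. Differences between tissues, lines, methods and instruments were not simulated. Python 3.11.15 with numpy 2.4.6, pandas 2.3.3, scipy 1.17.1 and matplotlib 3.10.9 was used.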

Additional observations from a re-analysis of the deposited data

How the results depend on the processing

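No paired analysis was possible because each group holds 1 library, and for the same reason no library of a group could be left out. The 481 higher genes became 880 with TMM, 976 with median-ratio factors, 738 with totals without the 100 most counted genes, 883 at 2-fold, 254 at 8-fold, 306 with the Iso1a-454 ovary library and 211 among genes that overlap no other. The 5273 lower genes became 3208 at a minimum of 200 counts, 2993 with the Iso1a-454 library and 2432 among non-overlapping genes. The 3 higher TE families became 0 when only copies of at least 50% of the longest span were used, 19 scaled to the TE total, 6 with TMM and 1 with the Iso1a-454 library. The 53 lower families became 13, with those copies, 29 scaled to the TE total, 101 at a minimum of 10 counts, 95 against the iso1a body and 24 with the Iso1a-454 library. The TE share of the ovary, Rev and IR6 libraries was 0.227%, 1.47% and 1.32% without the arm U stretch and 0.254%, 2.25% and 2.62% without overlapping copies, and it was 0.349% in the Iso1a-454 ovary library and 57.1% in the iso1a body. Against the iso1a body the log2 ratio changed sign for Cp38 (0.54), Pxt (3.34), Yp1 (1.76), Yp2 (5.09), Yp3 (2.47), me31B (2.58), RpL15 (0.96), betaTub56D (1.85), Gapdh1 (0.090) and Stalker2 (-8.46). It changed sign with the Iso1a-454 library for gnu (-0.55), PCNA (-2.92), stg (-2.38) and Dmir_spock (-0.81), per kilobase for mei-P26 (0.79), and scaled to the TE total for HMS-Beagle (0.54) and Idefix (2.64). These are the named genes and TE families with a call in the main comparison or in the alternative. Named genes without such a call also changed sign: 9 against the iso1a body, 4 with the Iso1a-454 library and 7 per kilobase. So did 5 with TMM, 10 with median-ratio factors and 3 with totals without the 100 most counted genes. The cause was not tested. Other minimums, an added count of 1 and either body alone turned no named gene with a call to the opposite direction. With 2813522 ovary gene counts, a gene at 0 in the ovary library may have a level of up to 3 counts, or 1.07 CPM.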

Other observations

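Further lists of tissues outside the ovary gave these values, on the same scale and with the same calls. Of all measured genes 57.9% were called lower. No ovary count was present for 14 measured cuticle genes and 15 measured odorant binding genes, which are called lower through the minimum of counts. Of 74 listed cuticle genes 16 were measured, 15 were called lower and none higher. Cpr97Eb, a chitin-binding cuticle protein, had 0 ovary counts against 5582 for Rev and 1625 for IR6, while Cpr50Cb, at 40, 44 and 12 counts (log2 ratios 1.92 and 3.47), was the one not called. Of 46 odorant binding protein genes 22 were measured and 18 called lower. Obp99c had 38 ovary counts against 10491 and 14388 (-6.04 and -6.77). Obp19c stood apart from the rest of its family, at 1062, 1078 and 1169 counts (2.03 and 1.64), above both bodies and short of 4-fold against IR6. It was picked after its values were seen.

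Of 11 haemocyte genes 8 were measured and 7 called lower. The collagen genes Col4a1 and vkg, which haemocytes and fat body express, had 0 ovary counts against 791 and 1024 for Rev and 744 and 905 for IR6, and srp, the GATA factor of blood and fat body, had 0 against 1215 and 1008. The scavenger receptor gene crq was not called, at 324, 2018 and 1315 counts (-0.58 and -0.24). Among the dosage compensation genes msl-1 was called lower at 36, 989 and 648 counts (-2.71 and -2.38), a call that ended per kilobase (-1.03 and -0.58) and with TMM, and mle was not called at 51, 335 and 190 (-0.65 and -0.11).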
